A study of Mus musculus with 15 samples.

Results

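The 10 genes followed here across 15 libraries of mouse cerebral vessels are used to recognise brain pericytes, or instruct them. They were Pdgfrb, Pdgfb, Rgs5, Cspg4, Kcnj8, Abcc9, Anpep, Vtn, Atp13a5 and Higd1b. They were taken by gene name, from a list set with earlier results of these data known. All 10 were found among the 22526 gene symbols of the expression table, each on 1 row. The values are FPKM, fragments per kilobase of transcript scaled to library size, from bulk RNA sequencing. The table is headed FPKM but 5.99% of its values, none of them from these 10 genes, lie below 0 and were set to 0.

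The 3 groups held 5 libraries each, from wild-type C57BL/6 mice aged 8 months. In the LH3-AL group an adeno-associated virus (AAV) carrying LH3, the collagen lysyl hydroxylase encoded by Plod3, was injected stereotactically, and the mice were then given AngII plus L-NAME. AngII is the vasoconstrictor angiotensin II and L-NAME blocks nitric oxide synthase, and the pair raises blood pressure. The GFP-AL group was given AAV-GFP, which carries green fluorescent protein, and the same drugs, and the GFP-Veh group was given AAV-GFP and saline. The 15 libraries include no group given the LH3 virus and saline, so that virus cannot be assessed without the drugs. All 3 groups shared the brain injection and a virus, and the sources used here give neither the virus promoter nor whether each library is 1 mouse, so the p-values measure the spread between libraries. The title of the series concerns spontaneous intracerebral haemorrhage in hypertension and its modification by LH3.

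Pericytes are contractile mural cells that lie within the capillary basement membrane and wrap the endothelium. In brain they help to form and maintain the blood-brain barrier and influence capillary flow. Endothelial cells secrete the growth factor PDGF-BB, encoded by Pdgfb, which binds the receptor tyrosine kinase PDGFR-beta on pericytes, encoded by Pdgfrb, and drives their recruitment and survival. No single gene defines the cell type, since Pdgfrb and Cspg4 are shared with other mural or glial cells.

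Vessel RNA held all 10 genes at readily measured levels. By the mean of all 15 libraries, Rgs5 ranked 29 among the 13082 genes tested, at 758 FPKM, and Vtn ranked 72, at 352 FPKM. Pdgfb ranked 239, Pdgfrb 546 and Higd1b 823, followed by Kcnj8 at 1429, Atp13a5 at 1966, Abcc9 at 2011, Cspg4 at 3306 and Anpep at 3599. FPKM is scaled for transcript length, so these levels may be set side by side as far as the deposited values keep that scaling. The step that gave values below 0 in the same table is not known. Within every group the levels of Rgs5, Vtn and Pdgfb did not overlap one another in any library. Pdgfb and Pdgfrb overlapped in GFP-AL but in neither other group. Further down, Cspg4 and Anpep overlapped in every group, as did Kcnj8 with whichever of Abcc9 and Atp13a5 stood beside it.

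The coordinates below are of GRCm38, since the expression table holds none, and none was converted from mm8, the build in the submitters' processing notes. Rgs5 lies at chr1:169655501-169695813, Cspg4 at chr9:56865033-56899870 and Vtn at chr11:78499091-78502324. Kcnj8 (chr6:142564837-142571614) and Abcc9 (chr6:142587862-142702315) are neighbours on the minus strand with 16247 bp between them. Atp13a5 (chr16:29231851-29378732) is 17120 bp from Atp13a4. All 10 are protein coding, and only Abcc9 has exons that overlap another annotated gene, 5330439B14Rik on the opposite strand, by 158 bp. The sources used here do not say whether counting used strand.

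RefSeq promoter windows (GRCm38.p6; 250 bases before to 50 after the start) were at hand for 7 of the 10 genes. Those of Rgs5, Cspg4, Anpep and Atp13a5 are shown because these 4 were among the 5 genes called between LH3-AL and GFP-AL below, and Vtn because it was among the 3 called between GFP-AL and GFP-Veh. Each runs 5′ to 3′ on the strand of its gene, and capitals mark matches to a searched motif.

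Rgs5 promoter, chr1:169655251-169655550, plus strand: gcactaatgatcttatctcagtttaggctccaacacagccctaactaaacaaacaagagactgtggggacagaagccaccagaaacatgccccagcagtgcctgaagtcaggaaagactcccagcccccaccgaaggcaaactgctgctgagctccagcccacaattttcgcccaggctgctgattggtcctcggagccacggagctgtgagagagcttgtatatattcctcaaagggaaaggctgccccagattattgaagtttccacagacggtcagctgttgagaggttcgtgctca

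Cspg4 promoter, chr9:56864854-56865153, plus strand: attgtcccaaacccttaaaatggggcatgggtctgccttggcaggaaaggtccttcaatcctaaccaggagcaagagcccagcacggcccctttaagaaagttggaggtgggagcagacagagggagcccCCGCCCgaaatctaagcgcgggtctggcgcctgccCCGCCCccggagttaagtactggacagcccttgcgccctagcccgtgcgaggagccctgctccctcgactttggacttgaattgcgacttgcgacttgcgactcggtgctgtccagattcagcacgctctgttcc

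Anpep promoter, chr7:79848161-79848460, minus strand: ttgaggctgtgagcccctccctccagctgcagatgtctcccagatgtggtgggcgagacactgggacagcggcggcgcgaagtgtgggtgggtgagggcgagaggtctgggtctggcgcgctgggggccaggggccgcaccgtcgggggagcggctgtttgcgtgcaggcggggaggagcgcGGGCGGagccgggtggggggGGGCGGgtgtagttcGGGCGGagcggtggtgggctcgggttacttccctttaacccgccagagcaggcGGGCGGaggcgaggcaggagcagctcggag

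Atp13a5 promoter, chr16:29378683-29378982, minus strand: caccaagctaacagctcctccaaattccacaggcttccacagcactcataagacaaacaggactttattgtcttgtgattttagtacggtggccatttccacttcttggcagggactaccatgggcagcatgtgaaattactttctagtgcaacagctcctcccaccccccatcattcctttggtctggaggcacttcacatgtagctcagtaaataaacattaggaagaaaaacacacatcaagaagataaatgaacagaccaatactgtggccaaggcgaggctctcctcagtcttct

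Vtn promoter, chr11:78498870-78499169, plus strand: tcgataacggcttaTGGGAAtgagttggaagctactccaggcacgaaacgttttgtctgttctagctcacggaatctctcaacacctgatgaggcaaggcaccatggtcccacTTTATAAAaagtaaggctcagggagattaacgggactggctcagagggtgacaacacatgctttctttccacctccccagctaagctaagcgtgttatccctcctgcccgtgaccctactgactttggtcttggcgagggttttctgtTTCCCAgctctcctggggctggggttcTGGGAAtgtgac

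Both strands were searched for 5 motifs: TGGGAA, the core bound by the Notch effector RBPJ; TGTTTAC, a forkhead motif; GGGCGG, the GC box; TATAAA, the TATA box; and the CArG box of serum response factor. Of 32851 RefSeq promoter windows, 25.6% held the RBPJ core, 3.65% the forkhead motif, 35.7% a GC box, 13.6% a TATA box and 1.63% a CArG box. Cspg4 held 2 GC boxes and Anpep 4. Vtn held 3 RBPJ cores and 2 TATA boxes that overlap each other. Rgs5 and Atp13a5 held none of these letters in their windows. The Anpep window starts from a RefSeq start 12849 bp inside the annotated 5′ end of the gene, and for Cspg4 and Vtn that distance was 71 and 29 bp. No measurement here bears on whether any of these matches is bound.

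The transferred gene had its highest mean in its own group: Plod3 averaged 21.6 ± 1.46 FPKM in LH3-AL, 13.9 ± 1.09 FPKM in GFP-AL and 16.8 ± 0.621 FPKM in GFP-Veh (SD, n = 5 each). By the limma test described below, LH3-AL was higher than GFP-AL by 0.60 ± 0.076 (adjusted p = 0.000107). Against GFP-Veh the difference of 0.34 ± 0.076 did not pass (adjusted p = 0.0628), although the lowest LH3-AL value, 19.5 FPKM, lay above the highest GFP-Veh value, 17.6 FPKM. GFP-AL was itself called lower than GFP-Veh (-0.25 ± 0.076, adjusted p = 0.022). Depth, estimated from the value that 1 fragment is worth, lay between 18.0 and 31.5 M fragments for LH3-AL, 21.2 and 27.7 M for GFP-AL, and 13.5 and 29.7 M for GFP-Veh. GFP-Veh replicates 1 to 4 lay between 13.5 and 16.0 M, below every library of the other groups, and only replicate 5 was deeper. Depth thus ran with group in the comparisons with GFP-Veh, and its part in the differences was not tested. The first principal component held 43.6% of the variance and placed the 5 GFP-AL libraries between 19.8 and 58.0, and every other library below 0. GFP-AL replicates 2 and 3 and GFP-Veh replicate 2 stood apart from their groups in earlier work on these data, so counts are also given without these 3 libraries (the 3 that stood apart).

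Across the 10 genes, GFP-AL vessels had less Rgs5, Vtn and Anpep RNA than GFP-Veh vessels, and LH3-AL vessels had more Rgs5, Atp13a5, Pdgfb, Cspg4 and Anpep RNA than GFP-AL vessels. The receptor gene Pdgfrb passed the test in neither comparison. Between LH3-AL and GFP-Veh none of the 10 passed. Tests were made with limma on log2(FPKM + 1) over all 13082 genes, and a gene was called at an adjusted p (Benjamini-Hochberg) below 0.05. Differences below are on that log2 scale, each with its SE.

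In GFP-AL against GFP-Veh 3 of the 10 genes were called lower and 0 higher, where 17.7% of all tested genes were called lower and 28.6% in either direction. The median difference of the 10 was -0.38, against -0.092 over all tested genes. Values of 2 genes, Rgs5 and Vtn, did not overlap between these groups, with GFP-AL below, as held for 10.1% of all genes. In LH3-AL against GFP-AL 5 of 10 were called higher and 0 lower, where 17.0% of all genes were called higher and 28.5% either way, and the median was 0.44 against 0.079. For 0 of the 10 did LH3-AL lie wholly above GFP-AL, as it did for 11.0% of all genes. In LH3-AL against GFP-Veh limma called 0 of 10, where 0.520% of all genes were called in either direction, and 1 had an unadjusted p under 0.05. GFP-AL libraries enter both of the first comparisons, with opposite sign, so these are not independent of each other. Without the 3 libraries that stood apart, 2 genes were called in each of the first comparisons: Vtn lower and Pdgfrb higher in GFP-AL against GFP-Veh, and Rgs5 and Cspg4 higher in LH3-AL against GFP-AL. Of all genes, those fits called 26.2% and 21.2% in either direction, so 2 of 10 is near the background.

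**Figure D1:**
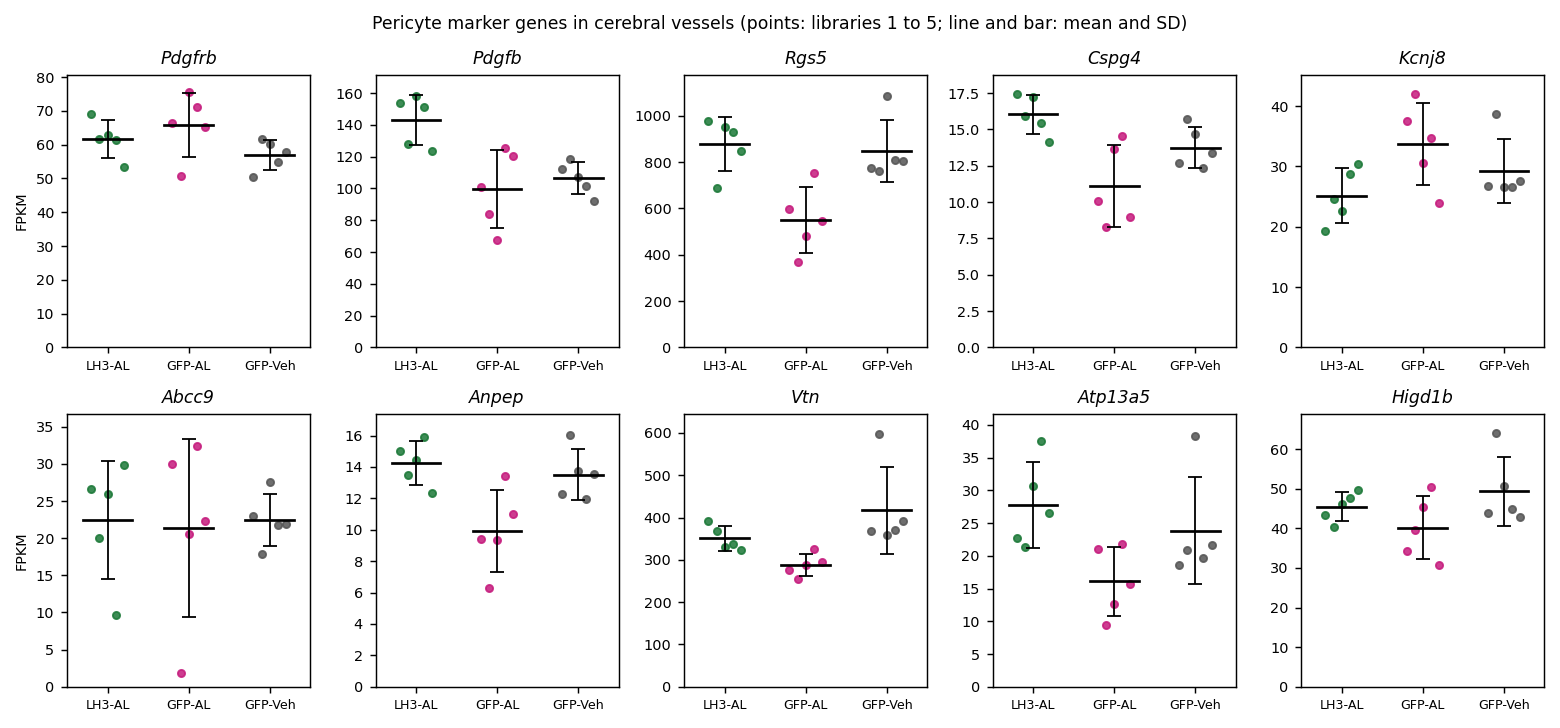
FPKM of the 10 genes in each library, with LH3-AL, GFP-AL and GFP-Veh from left to right; points are libraries 1 to 5, and line and bar are the mean and SD. All 5 GFP-AL points of Rgs5 and of Vtn lie below all 5 GFP-Veh points, while Pdgfrb differs little between groups and Abcc9 has single low libraries at 1.79 and 9.69 FPKM.

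Ligand and receptor behaved differently. Pdgfrb had 69.0, 61.6, 62.8, 61.4 and 53.4 FPKM in LH3-AL, 66.4, 50.8, 75.7, 71.3 and 65.3 FPKM in GFP-AL, and 50.5, 61.5, 60.2, 54.9 and 57.8 FPKM in GFP-Veh. The 3 groups overlapped throughout. Its difference was 0.20 ± 0.11 in GFP-AL against GFP-Veh (95% interval -0.031 to 0.43, adjusted p = 0.181) and -0.087 ± 0.11 in LH3-AL against GFP-AL (-0.31 to 0.14, adjusted p = 0.562). The first was called higher in 3 of 24 other settings, among them without GFP-AL replicate 2, the lowest of its group, and the fit that left out all 3 such libraries (0.27, adjusted p = 0.0437).

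Pdgfb, the ligand made by endothelium, had 154, 128, 158, 151 and 124 FPKM in LH3-AL, 101, 84.2, 67.4, 126 and 121 FPKM in GFP-AL, and 112, 119, 107, 102 and 92.0 FPKM in GFP-Veh. Every LH3-AL library lay above every GFP-Veh library, and only GFP-AL replicate 4 reached the lowest LH3-AL value. LH3-AL was higher than GFP-AL by 0.54 ± 0.15 (adjusted p = 0.0159), a call lost only in the fit without the 3 (0.30, adjusted p = 0.0698). Against GFP-Veh the difference was 0.42 ± 0.15 (adjusted p = 0.363), and 2.06% of all genes had LH3-AL wholly above GFP-Veh. Pdgfb did not pass between GFP-AL and GFP-Veh (-0.12 ± 0.15, 95% interval -0.44 to 0.20, adjusted p = 0.567), and that sign turned without GFP-AL replicate 3 (0.0076).

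Among the other PDGF genes, Pdgfd, a second ligand of PDGFR-beta, averaged 23.9 ± 3.45 FPKM in LH3-AL, 13.3 ± 3.27 in GFP-AL and 19.8 ± 2.58 in GFP-Veh (SD, n = 5 each). It fell in the first comparison, GFP-AL with GFP-Veh (-0.56 ± 0.15, adjusted p = 0.0134) and rose in LH3-AL against GFP-AL (0.82 ± 0.15, adjusted p = 0.00164). Pdgfa averaged 6.46, 8.77 and 7.77 FPKM in LH3-AL, GFP-AL and GFP-Veh and passed in no comparison, and Pdgfc stayed under the mean of 1 FPKM needed for a test. Pdgfra, the receptor of oligodendrocyte precursors and fibroblasts, averaged 6.28, 3.87 and 5.55 FPKM and rose in LH3-AL against GFP-AL (0.63 ± 0.19, adjusted p = 0.0245). Ligands and receptors did not share 1 direction.

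Over the wider list of 20 tested PDGF signalling genes, 3 were called higher and 4 lower in GFP-AL against GFP-Veh, where 10.8% of all tested genes were called higher and 17.7% lower, and with a list median of -0.12 against -0.092 over all genes. The share called in this list, 7 of 20, was thus near the 28.6% over all genes. Furin, a proprotein convertase that can cleave PDGF precursors, averaged 11.6 ± 1.59 FPKM in LH3-AL, 19.6 ± 2.96 in GFP-AL and 10.3 ± 0.650 in GFP-Veh. The adaptor Shc1 and Plat, the protease that activates PDGF-CC, were the other 2 called higher, by 0.42 ± 0.077 (adjusted p = 0.00115) and 0.66 ± 0.20 (adjusted p = 0.0217). Called lower were the co-receptor Nrp1 (-1.08 ± 0.21, adjusted p = 0.00192), Pdgfd, the docking protein Gab1 (-0.47 ± 0.13, adjusted p = 0.0110) and the phospholipase Plcg1 (-0.40 ± 0.14, adjusted p = 0.0449). LH3-AL against GFP-AL gave 6 called higher and 3 lower (median 0.056), where 17.0% of all genes were called higher and 11.4% lower, and 3 and 3 without the 3 libraries that stood apart. The 6 were Pdgfd, Nrp1, Pdgfb, Gab1, Plcg1 and Pdgfra, the 3 were Furin, Plat and Shc1, and the GFP-AL libraries are shared with the first comparison.

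Rgs5, a regulator of G protein signalling that shortens the response of vasoactive receptors, was the most abundant of the 10. It had 978, 688, 950.0, 929.9 and 847 FPKM in LH3-AL, 596, 370.0, 480.0, 753 and 545 FPKM in GFP-AL, and 773, 762, 1086, 810.4 and 805 FPKM in GFP-Veh. All 5 GFP-AL libraries were below all 5 GFP-Veh libraries, and GFP-AL replicate 4 was the only one above the lowest LH3-AL library. GFP-AL was lower than GFP-Veh (-0.65 ± 0.17, adjusted p = 0.0114), and LH3-AL was higher than GFP-AL by 0.71 ± 0.17 (adjusted p = 0.00833). With those 3 left out these were -0.46 (adjusted p = 0.0527), which ended the call, and 0.48 (adjusted p = 0.0435). Against GFP-Veh, LH3-AL differed by 0.055 ± 0.17 (95% interval -0.31 to 0.42). Rgs4, its neighbour on chromosome 1, averaged 32.5 ± 2.88 FPKM in LH3-AL, 29.8 ± 10.8 in GFP-AL and 37.0 ± 5.19 in GFP-Veh and was called in no comparison.

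Vitronectin, encoded by Vtn, is a secreted adhesion protein that brain pericytes make and that binds endothelial integrins. Vtn had 393, 369, 331, 338 and 324 FPKM in LH3-AL, 275, 255, 288, 327 and 294 FPKM in GFP-AL, and 367, 597, 358, 369 and 391 FPKM in GFP-Veh. GFP-AL lay wholly below GFP-Veh, and GFP-Veh replicate 2 lay far above the other 4. The difference of -0.51 ± 0.13 (adjusted p = 0.0111) was called lower in all 24 other settings and was -0.32 (adjusted p = 0.0228) with those 3 left out. In LH3-AL against GFP-AL it was 0.29 ± 0.13 (95% interval 0.00035 to 0.57, adjusted p = 0.120), which did not pass. It was called higher in 2 of 24 other settings, with quantile normalization (0.62, adjusted p = 0.00302) and without GFP-Veh replicate 2 (0.29, adjusted p = 0.0230).

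Anpep encodes the membrane aminopeptidase CD13, a surface label of brain pericytes. Its values were 15.0, 13.5, 14.5, 15.9 and 12.3 FPKM in LH3-AL, 9.44, 6.29, 9.32, 13.4 and 11.02 FPKM in GFP-AL, and 12.3, 16.1, 13.7, 11.95 and 13.6 FPKM in GFP-Veh. Only GFP-AL replicate 4 fell inside the range of either other group. GFP-AL was called lower than GFP-Veh (-0.44 ± 0.15, adjusted p = 0.0344), a call lost in 11 of 24 other settings, with an adjusted p of up to 0.254. LH3-AL was higher than GFP-AL by 0.51 ± 0.15 (adjusted p = 0.0179), lost only when those 3 were left out (0.32, adjusted p = 0.0571).

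Cspg4 encodes the NG2 proteoglycan, which pericytes carry and oligodendrocyte precursors carry too. It had 17.4, 16.0, 17.2, 15.4 and 14.2 FPKM in LH3-AL, 10.1, 8.26, 13.7, 14.6 and 8.99 FPKM in GFP-AL, and 12.7, 15.7, 14.7, 12.4 and 13.4 FPKM in GFP-Veh. GFP-AL was the most variable group, with replicates 3 and 4 inside the GFP-Veh range and the other 3 below it. LH3-AL was higher than GFP-AL by 0.52 ± 0.13 (adjusted p = 0.0115), called in all 24 other settings, while GFP-AL against GFP-Veh gave -0.31 ± 0.13 (adjusted p = 0.0970), which did not pass. Of the markers of oligodendrocyte precursors, 4 of 7 tested were called lower in GFP-AL against GFP-Veh (17.7% of all genes), among them Olig1 (-1.06 ± 0.21, adjusted p = 0.00188) and Sox10 (-1.003 ± 0.29, adjusted p = 0.0165), and 5 of 7 were called higher in LH3-AL against GFP-AL (17.0% of all genes). Without the 3 libraries that stood apart each count was 3 of 7. The 10 markers summed to 41.2 to 89.3 FPKM in LH3-AL, 22.1 to 39.8 in GFP-AL and 47.9 to 71.4 in GFP-Veh, and none was below 0.1 FPKM on group average. Their part in the Cspg4 difference was not tested.

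Atp13a5 encodes a membrane pump of the P5 ATPase family that in mouse brain is largely confined to pericytes. It had 22.7, 21.4, 30.7, 37.5 and 26.6 FPKM in LH3-AL, 21.0, 9.42, 12.6, 21.8 and 15.6 FPKM in GFP-AL, and 18.7, 20.8, 38.3, 19.7 and 21.7 FPKM in GFP-Veh. LH3-AL replicate 4 and GFP-Veh replicate 3 were high, and GFP-AL replicates 2 and 3 were low. LH3-AL was higher than GFP-AL by 0.78 ± 0.23 (adjusted p = 0.0221), lost in 4 of 24 other settings: without LH3-AL replicate 4, without GFP-AL replicate 2, without GFP-AL replicate 3, and without all 3 such libraries (0.48, adjusted p = 0.165). GFP-AL against GFP-Veh gave -0.55 ± 0.23 (adjusted p = 0.0903). The other pumps of the family, Atp13a1, Atp13a2, Atp13a3 and Atp13a4, were called in no comparison. Of these, Atp13a4, the genomic neighbour, averaged 2.96 ± 0.921 FPKM in LH3-AL, 1.76 ± 0.428 in GFP-AL and 2.86 ± 1.14 in GFP-Veh.

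Higd1b belongs to a family of hypoxia-inducible mitochondrial proteins. It had 43.3, 40.3, 46.2, 47.7 and 49.7 FPKM in LH3-AL, 34.4, 39.5, 45.5, 50.4 and 30.8 FPKM in GFP-AL, and 43.9, 64.0, 50.8, 44.9 and 43.0 FPKM in GFP-Veh. The groups overlapped, and neither the difference of GFP-AL against GFP-Veh (-0.30 ± 0.14, 95% interval -0.59 to -0.0061, adjusted p = 0.116) nor that of LH3-AL against GFP-AL (0.19 ± 0.14, adjusted p = 0.295) passed. Its relative Higd1a averaged 10.6, 13.6 and 12.9 FPKM in LH3-AL, GFP-AL and GFP-Veh and passed in no comparison.

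Kcnj8 and Abcc9 encode Kir6.1 and SUR2, the pore and the regulatory subunit of the ATP-sensitive potassium channel of mural cells. Kcnj8 had 19.2, 24.6, 22.6, 28.7 and 30.4 FPKM in LH3-AL, 37.6, 41.9, 30.5, 34.7 and 24.0 FPKM in GFP-AL, and 26.7, 38.6, 26.6, 26.7 and 27.6 FPKM in GFP-Veh. Here GFP-AL had the highest mean, and the difference of LH3-AL against GFP-AL, -0.40 ± 0.16 (95% interval -0.74 to -0.069), did not pass (adjusted p = 0.0660). With median-of-ratios scaling it was called lower (-0.48, adjusted p = 0.0394), and in 3 other settings too. Abcc9 had 26.6, 19.99, 25.9, 9.69 and 29.9 FPKM in LH3-AL, 30.0, 1.79, 20.5, 32.4 and 22.3 FPKM in GFP-AL, and 23.0, 17.8, 27.6, 21.7 and 21.9 FPKM in GFP-Veh. GFP-AL replicate 2, at an estimated 372 fragments, and LH3-AL replicate 4 were low, and the other 13 libraries lay between 17.8 and 32.4 FPKM.

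With these libraries the Abcc9 intervals were wide, -1.56 to 0.67 for GFP-AL minus GFP-Veh (adjusted p = 0.552) and -0.75 to 1.48 in LH3-AL against GFP-AL (adjusted p = 0.620). Without GFP-AL replicate 2 the 2 differences were 0.21 and -0.29, of opposite sign to the values over all libraries. The other channel subunits, Kcnj11 and Abcc8, were low: Kcnj11 averaged 2.83, 2.34 and 1.80 FPKM and Abcc8 4.46, 2.85 and 4.36 FPKM in LH3-AL, GFP-AL and GFP-Veh. None of the 4 subunit genes was called in any of the comparisons.

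**Figure D2:**
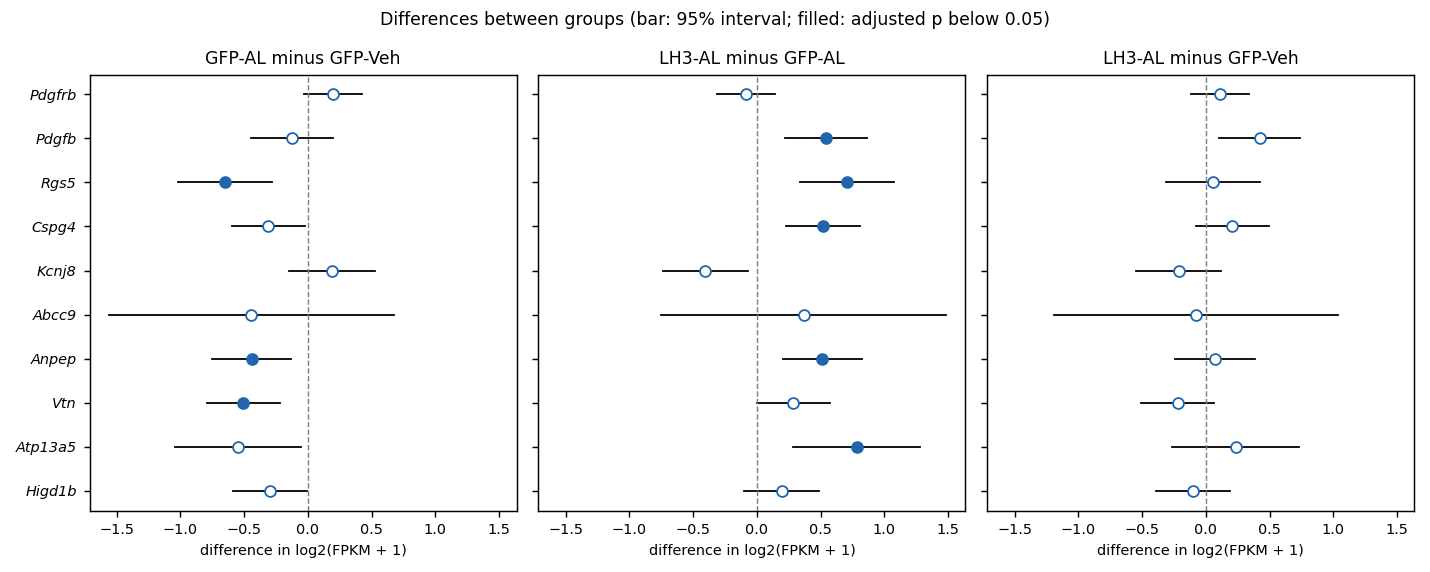
Difference in log2(FPKM + 1) for each gene in the 3 comparisons, with its 95% interval from limma; filled points have an adjusted p below 0.05. The left panel holds 3 filled points, all below 0, the middle one 5, all above 0, and the right one none.

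Single libraries carried much of the spread within GFP-AL. GFP-AL replicate 4 was the highest of its group for 8 of the 10 genes and GFP-AL replicate 2 the lowest for 7. In GFP-Veh, replicate 2 was the highest for 7. Kcnj8 ran the other way, with GFP-AL replicate 2 its highest value. The median difference of the 9 genes without Pdgfb from their GFP-Veh means was -0.68 in GFP-AL replicate 2 and 0.047 in GFP-AL replicate 4. Outside GFP-AL it ran from -0.145 in LH3-AL replicate 2 to 0.182 in GFP-Veh replicate 2, so GFP-AL held the low end of the range but not the high end.

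**Figure D3:**
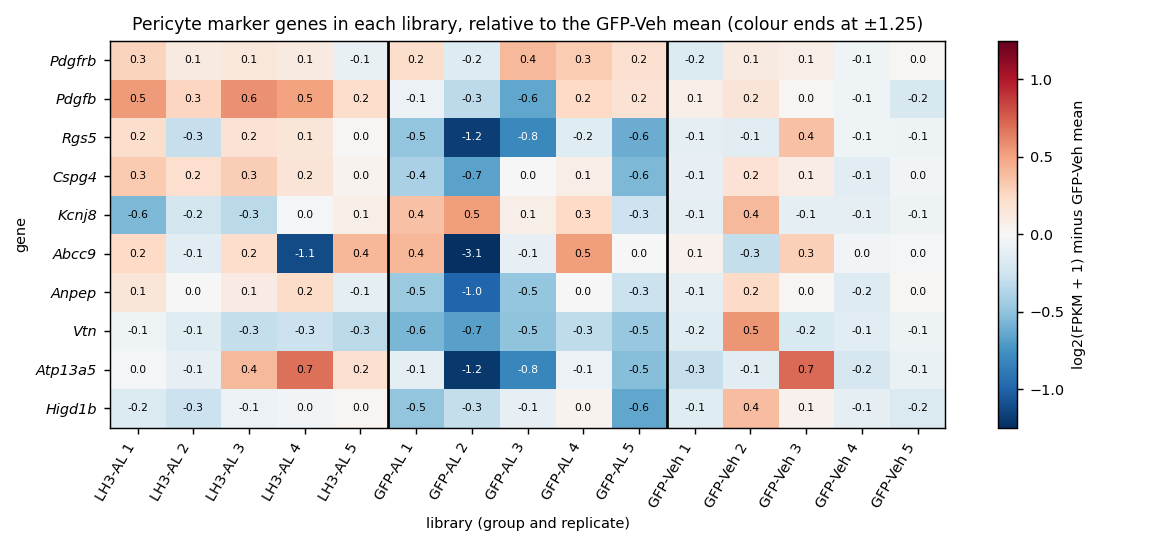
Each gene in each library as log2(FPKM + 1) minus the GFP-Veh mean, in columns LH3-AL 1 to 5, GFP-AL 1 to 5 and GFP-Veh 1 to 5; blue is below and red above the mean. GFP-AL columns are mostly blue for Rgs5, Anpep, Vtn and Atp13a5, but not for Pdgfrb or Kcnj8, and GFP-AL 2 is the darkest.

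In bulk vessels, fewer pericytes and less RNA per pericyte cannot be told apart. A ratio to Pdgfrb within a library does not depend on how a library was scaled, and was therefore taken for the other 9 genes. It does depend on Pdgfrb, whose own difference was 0.20 in GFP-AL against GFP-Veh, called higher in 3 of 24 other settings, and a higher divisor lowers every GFP-AL ratio. The shares over all genes given beside the counts have the same divisor. In GFP-AL against GFP-Veh the ratios of Rgs5, Cspg4, Anpep, Vtn and Atp13a5 did not overlap, with GFP-AL below: 5 of 9, where 13.5% of all genes had a ratio to Pdgfrb that lay wholly below. In LH3-AL against GFP-AL those of Pdgfb, Rgs5, Cspg4, Anpep, Vtn and Atp13a5 lay wholly above, 6 of 9, where this held for 13.6% of all genes. Between LH3-AL and GFP-Veh 0 of 9 separated, where 4.54% of all genes did in either direction.

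Rgs5 over Pdgfrb was 14.2, 11.2, 15.1, 15.1 and 15.9 in LH3-AL, 8.98, 7.29, 6.35, 10.6 and 8.34 in GFP-AL, and 15.3, 12.4, 18.0, 14.8 and 13.9 in GFP-Veh. The highest GFP-AL ratio lay below the lowest of both other groups. Cspg4 over Pdgfrb averaged 0.260 ± 0.0094 in LH3-AL, 0.168 ± 0.0259 in GFP-AL and 0.241 ± 0.0128 in GFP-Veh (SD, n = 5 each), with no overlap of GFP-AL with either other group. Anpep over Pdgfrb averaged 0.232 ± 0.0168, 0.149 ± 0.0287 and 0.237 ± 0.0163 in the same order of groups. Vtn over Pdgfrb was 5.70 ± 0.328 in LH3-AL, 4.41 ± 0.458 in GFP-AL and 7.28 ± 1.43 in GFP-Veh, so LH3-AL lay between the other 2 by mean. Ligand over receptor, Pdgfb over Pdgfrb, was 2.32 ± 0.179 in LH3-AL, 1.54 ± 0.381 in GFP-AL and 1.88 ± 0.230 in GFP-Veh, and LH3-AL and GFP-AL did not overlap.

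Endothelial RNA gave a second yardstick. The summed FPKM of the 9 pericyte genes over that of 20 endothelial genes was 0.244 to 0.357 in LH3-AL, 0.142 to 0.236 in GFP-AL and 0.294 to 0.350 in GFP-Veh, and GFP-AL lay below both other groups in every library. Since Rgs5 makes up most of that sum, the ratio was also taken without it: 0.0950 to 0.153 in LH3-AL, 0.0719 to 0.101 in GFP-AL and 0.120 to 0.154 in GFP-Veh. GFP-AL then still lay below GFP-Veh in every library but overlapped LH3-AL. Vtn, itself called lower in GFP-AL, is the largest part of what remains, at a mean of 417 FPKM in GFP-Veh. No share over all genes was taken for these ratios. The endothelial sum itself was 3712 to 5685 FPKM in LH3-AL, 4928 to 6899 in GFP-AL and 3984 to 5416 in GFP-Veh. These ranges overlapped, with the highest mean in GFP-AL (5535 FPKM, against 4752 in LH3-AL and 4600 in GFP-Veh). A difference in the sum was not tested. Slc2a1 and Cldn5 were the largest parts of that sum in GFP-AL, at means of 1369 and 1275 FPKM. Of these, Slc2a1 was called higher by limma in GFP-AL than in GFP-Veh (0.90 ± 0.30, adjusted p = 0.0353). Cldn5 did not pass there (0.38 ± 0.20, adjusted p = 0.160).

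**Figure D4:**
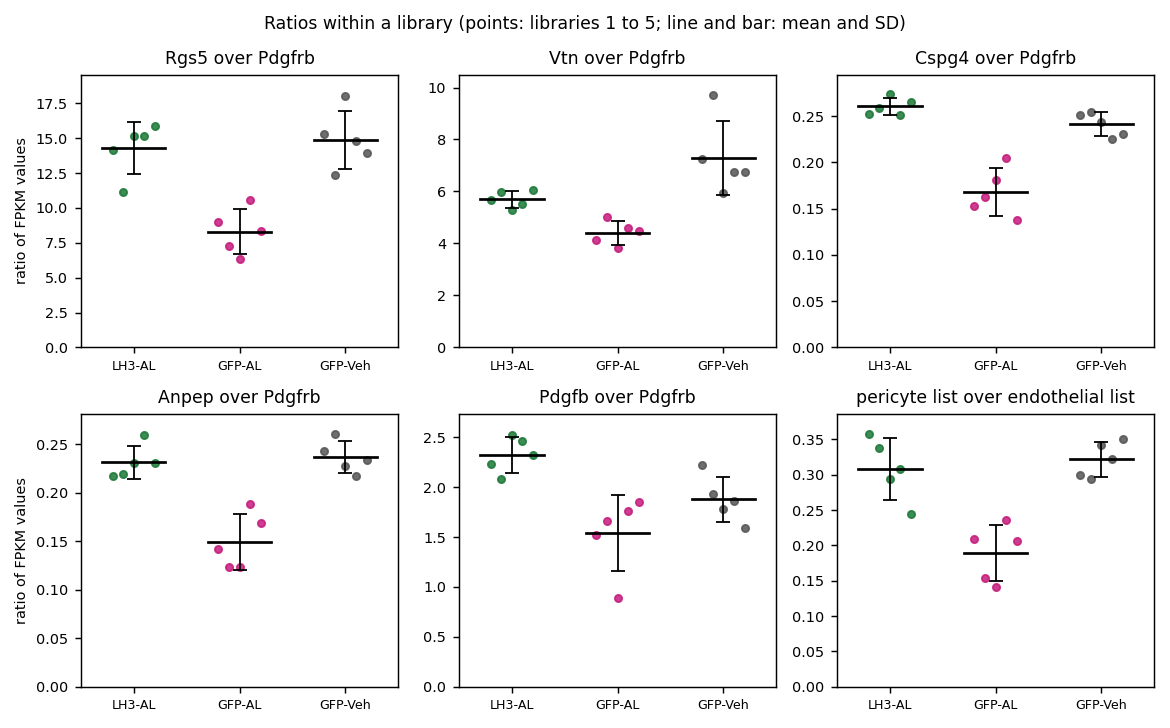
Ratios of FPKM values within a library for LH3-AL, GFP-AL and GFP-Veh from left to right; points are libraries 1 to 5, and line and bar are the mean and SD. In each of the panels for Rgs5, Vtn, Cspg4 and Anpep over Pdgfrb and for the pericyte over the endothelial list, all 5 GFP-AL points lie below all points of both other groups.

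A further list of 30 genes with known expression in brain pericytes was called in both directions, at shares near those over all genes. In GFP-AL against GFP-Veh 3 were called higher and 6 lower (median -0.19), where 28.6% of all genes were called in either direction, 10.8% higher and 17.7% lower. The counts were 6 and 3 after median-of-ratios scaling, and 5 and 4 without the 3 libraries that stood apart. Called higher were Ifitm1, an interferon-induced membrane protein (1.67 ± 0.24, adjusted p = 0.000198), the phospholipase Pla1a (1.11 ± 0.14, adjusted p = 4.73e-05) and the adhesion molecule Mcam (0.46 ± 0.11, adjusted p = 0.00673). Among those called lower were the proteoglycan Aspn (-1.17 ± 0.23), the transporter Slc38a11 (-0.70 ± 0.19), Cox4i2, Gucy1b3 and Pth1r, with adjusted p between 0.00161 and 0.0445. In LH3-AL against GFP-AL 6 were called higher and 4 lower (median 0.12; 4 and 5 with median-of-ratios scaling), beside 28.5% of all genes in either direction, with Aspn, Slc38a11, Pth1r, the laminin gene Lamc3 and Enpep among the higher, and Ifitm1, Pla1a and Mcam among the lower. Ifitm1 averaged 38.7 ± 2.26 FPKM in LH3-AL, 118 ± 51.7 in GFP-AL and 35.0 ± 11.8 in GFP-Veh. Notch3, the mural Notch receptor, averaged 34.3, 29.6 and 32.1 FPKM in LH3-AL, GFP-AL and GFP-Veh and passed in no comparison.

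Genes for signals that pass between endothelium and mural cells were called in both directions. Of 20 such genes 4 were called higher and 4 lower in GFP-AL against GFP-Veh (6 and 3 with median-of-ratios scaling, 5 and 2 without the 3 libraries that stood apart), where 10.8% of all genes were called higher and 17.7% lower, so the lower share was near the background. Angpt2, the endothelial antagonist of the Tie2 receptor, averaged 12.5 ± 5.74 FPKM in LH3-AL, 60.4 ± 13.97 in GFP-AL and 12.1 ± 2.51 in GFP-Veh, and rose by 2.21 ± 0.23 where GFP-AL is set against GFP-Veh (adjusted p = 1.8e-05). Tek, which encodes Tie2, averaged 64.7 ± 11.2, 36.8 ± 11.45 and 69.3 ± 10.5 FPKM in the same order and fell there (-0.95 ± 0.20, adjusted p = 0.00285). Angpt1, the agonist that pericytes make, fell too (-0.39 ± 0.13, adjusted p = 0.0340), as did N-cadherin, Cdh2 (-0.47 ± 0.12, adjusted p = 0.0101). Tgfb1 (1.14 ± 0.13), Hbegf (1.27 ± 0.37) and the Notch ligand Dll4 (0.58 ± 0.19) rose, with adjusted p between 3.8e-05 and 0.0352. In LH3-AL against GFP-AL 3 were called higher, Tek, Angpt1 and Cdh2, and 5 lower, Angpt2, Tgfb1, Dll4, Hbegf and S1pr1 (1 and 5 without those 3 libraries), beside 17.0% and 11.4% of all genes.

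Markers of other cells in the preparation were called in the same comparisons. The counts below stand beside 10.8% of all genes called higher and 17.7% lower in GFP-AL against GFP-Veh, and 17.0% higher and 11.4% lower in LH3-AL against GFP-AL. Smooth muscle genes, the nearest mural relatives, were called lower at 5 of 14 in GFP-AL against GFP-Veh and higher at 4 of 14 in LH3-AL against GFP-AL, led by Pln (-1.36 ± 0.30, adjusted p = 0.00404; 1.19 ± 0.30, adjusted p = 0.0102). Median-of-ratios scaling left 2 and 3, and the fits without the 3 libraries that stood apart 0 and 2. Their 15 genes summed to 714 to 1025 FPKM in LH3-AL, 676 to 862 in GFP-AL and 792 to 1304 in GFP-Veh, with overlap. Endothelial genes were called higher at 8 of 20 and lower at 5 in GFP-AL against GFP-Veh (8 and 2 with median-of-ratios scaling, 5 and 2 without the 3 libraries), with Pecam1 and Cdh5 higher and Tek and Itm2a lower. Against GFP-AL, 2 were higher and 6 lower in LH3-AL (2 and 4 without the 3 libraries).

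Microglia and macrophage genes were called higher at 7 of 12 in GFP-AL against GFP-Veh and lower at 8 of 12 in LH3-AL against GFP-AL. Their sum was 187 to 213 FPKM in LH3-AL, 363 to 547 in GFP-AL and 144 to 265 in GFP-Veh, with GFP-AL above both. Choroid plexus genes were called lower at 7 of 10 and then higher at 7 of 10, with sums of 3163 to 5262 FPKM in LH3-AL, 1977 to 3099 in GFP-AL and 3672 to 9200.25 in GFP-Veh. Perivascular fibroblast genes were called higher at 1 and lower at 3 of 10, and then higher at 4 and lower at 1, but 4 and 2 in the second comparison with median-of-ratios scaling, and 3 and 1, then 1 and 2, without the 3 libraries that stood apart. Of the 5 neutrophil and monocyte genes tested 3 were called higher and then 5 lower. Astrocyte genes were called higher at 1 and lower at 2 of 8, then 1 and 1, and neuron genes at 0 of 8, then higher at 1. None of these lists had a called gene in LH3-AL against GFP-Veh, and no marker in them averaged below 0.1 FPKM in any group, so RNA of the markers of all these cell types was present. Their part in the pericyte gene differences was not tested.

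**Figure D5:**
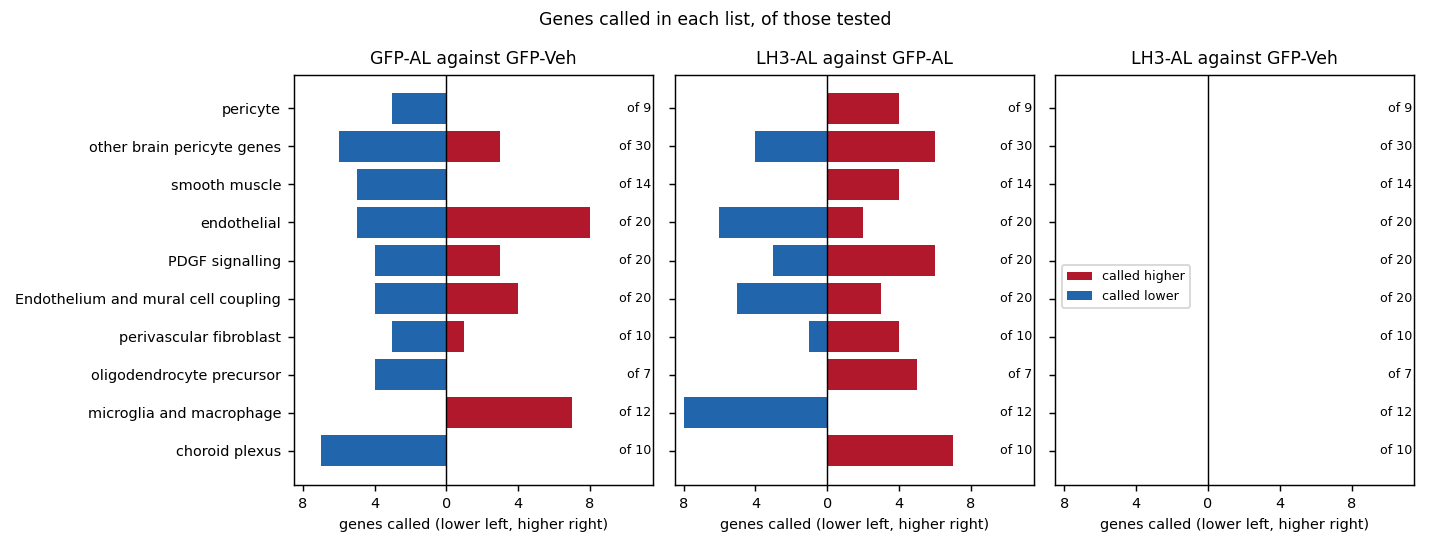
Number of genes called lower (left of 0) and higher (right of 0) in each gene list for GFP-AL against GFP-Veh, LH3-AL against GFP-AL and LH3-AL against GFP-Veh, with the number tested at the right of each panel. The pericyte row holds 3 lower of 9, then 4 higher of 9, and the right panel is empty.

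The genes that followed each marker most closely over the 15 libraries were found by the SD of the difference between 2 log2(FPKM + 1) values, among 12144 named genes. For Atp13a5 the closest of all was Rgs5 (SD 0.217), then Pdgfd (0.245). Rgs5 itself was closest to the transcription factor gene Ebf1 (0.097) and the spectrin gene Sptbn1 (0.108), and Pdgfrb to the thrombin receptor gene F2r (0.082) and Topors (0.096). Pdgfb was closest to Degs2 (0.131) and Card6 (0.141), Cspg4 to Klhl23 (0.114) and Mllt3 (0.130), Anpep to Cntln (0.121) and Pip5k1b (0.128), and Vtn to Rcn3 (0.096) and Rnaset2b (0.123). Higd1b was closest to Cnn2 (0.109) and Sp110 (0.129) and Kcnj8 to Txndc12 (0.159) and Emd (0.178), while Abcc9 had no close match, with Slco1a4 (0.498) and Zfp131 (0.499) first. Within the 10, the closest pairs were Cspg4 with Anpep (0.183), Rgs5 with Anpep (0.208) and Rgs5 with Atp13a5 (0.217). Among the 12144 genes, the closest fellow marker ranked 1 for Atp13a5, 29 for Cspg4, 81 for Anpep and 84 for Rgs5. That rank was 229 for Abcc9, 303 for Pdgfb, 387 for Higd1b, 412 for Vtn, 3571 for Kcnj8 and 4943 for Pdgfrb. These are descriptions over libraries that share preparation and groups, and small values are easier to reach for genes that vary little.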

How the data were processed

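Per the labels' protocols, mice were perfused, pia and choroid plexus were removed from the brains, and vessels were taken from a sucrose homogenate by repeated low-speed spins. STAR 2.5.1b and the build mm8 are named in the submitters' processing notes, and no source used here gives the counting step. The authors deposited a table headed FPKM for 22557 genes and 15 libraries. Of its values 5.99% lie below 0 (lowest -0.465; 92.8% of these above -0.001), which FPKM cannot do, so the deposited values were held as a score, and those below 0 were set to 0. Per the file headers, 2 further tables that the authors deposited give log2 fold changes, p-values and q-values of differential genes, by a test that no source used here names.

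Rows sharing a symbol (31 symbols) were summed. limma 3.58.1 in R 4.3.3 was fitted on log2(FPKM + 1) over all 15 libraries with an intensity trend, on the 13082 genes whose mean reached 1 FPKM. This scale understates changes of low genes. All 10 markers passed this filter. Groups came from the labels. The test was checked on simulated data. No 2 libraries were copies (highest correlation 0.9932). Among low values, 64.1% to 90.5% were whole fragments within 0.1 once scaled, against 20% by chance at a fixed depth. Depth was picked by a search for a high share, so 20% understates what chance would give. The lowest share was that of GFP-AL replicate 3, from 128 values. Since not all were whole, no count test was run and depth is an estimate.

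The members, gene lists, tests and the rule for named genes were chosen with earlier results of these data known. Named from each list were up to 6 called genes with the smallest p, and relatives and closest genes by a set rule; values of some list genes are not reported here. Other settings tried were a pseudocount of 0.1, genes unfiltered, a minimum mean of 5 FPKM, median-of-ratios scaling, quantile normalization, only the groups compared, a replicate block, library weights, leaving out the 3 libraries that stood apart, and leaving out each library. Gene positions came from GENCODE M21.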

Additional observations from a re-analysis of the deposited data

Results flagged for a closer look

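In 4 of the 30 sets of 5 values (10 genes in 3 groups), the highest or lowest library lay further from its nearest neighbour than Dixon's 95% limit allows; chance gives about 1 in 20. All 4 were in GFP-Veh. GFP-Veh replicate 3 was high for Rgs5 (1086 FPKM) and for Atp13a5 (38.3 FPKM). GFP-Veh replicate 2, one of the 3 libraries that stood apart, was high for Kcnj8 (38.6 FPKM) and for Vtn (597 FPKM). The low Abcc9 value of GFP-AL replicate 2 did not reach the limit.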

How the results depend on the processing

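The 10 genes in 3 comparisons gave 720 values over 24 other settings, of which 676 kept their direction and their side of the threshold, 18 lost a call, 14 gained one and 12 changed sign. None of those that changed sign was called under any setting run. For Pdgfrb in LH3-AL against GFP-AL the sign turned with quantile normalization (0.11), and for Rgs5 in LH3-AL against GFP-Veh likewise (-0.15). For Pdgfb in GFP-AL against GFP-Veh it turned with library weights (0.062), without the 3 libraries that stood apart (0.16) and without GFP-AL replicate 3 (0.0076). For Higd1b in LH3-AL against GFP-Veh it turned with library weights (0.026). Abcc9 turned in GFP-AL against GFP-Veh without GFP-AL replicate 2 (0.21) and without the 3 libraries (0.24); in LH3-AL against GFP-AL with library weights (-0.27), without the 3 libraries (-0.39) and without GFP-AL replicate 2 (-0.29); and in LH3-AL against GFP-Veh without LH3-AL replicate 4 (0.18). With 1 library left out, the difference ran from -0.22 to 0.0076 for Pdgfb in GFP-AL against GFP-Veh, and for Abcc9 from -0.69 to 0.21 in GFP-AL against GFP-Veh, -0.29 to 0.63 in LH3-AL against GFP-AL and -0.20 to 0.18 in LH3-AL against GFP-Veh. The cause was not tested, beyond the low Abcc9 libraries named.

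The count of called genes in GFP-AL against GFP-Veh was 2 to 5 with 1 library left out (5 without GFP-AL replicate 4), 4 with quantile normalization, and 2 with median-of-ratios scaling, with only the 2 groups and without the 3 libraries. In LH3-AL against GFP-AL it was 4 to 7 with 1 library left out, 6 with median-of-ratios scaling (5 higher and Kcnj8 lower), and 2 without the 3 libraries, where fewer libraries enter. In LH3-AL against GFP-Veh it was 0 throughout, except 1 (Pdgfb) with library weights. With the replicate number as a block the counts were 2, 5 and 0. Libraries of 1 number share only that number: correlations of their deviations ran from -0.261 to 0.286.

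Each of the 10 genes had at least an estimated 372 fragments in every library, so the spread between libraries, more than counting, limits the precision.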

Other observations

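The authors' deposited tables of differential genes hold 1764 genes for GFP-AL against GFP-Veh and 1746 for the table named LH3-AL against GFP-Veh, and none of the 10 pericyte genes is in either. The smallest absolute log2 fold change in them was 1.001 and 1.0. The largest difference of the 10 genes here was 0.783, for Atp13a5. Absence from those tables therefore does not show that these genes were unchanged. In the authors' deposited table of that second name, the signs matched the difference of LH3-AL minus GFP-AL computed here at 995 of 995 shared genes, and that of LH3-AL minus GFP-Veh at 559 (56.2%). The median absolute gap to the authors' deposited log2 values was 0.344 for LH3-AL minus GFP-AL and 1.313 for LH3-AL minus GFP-Veh. No value of these tables was used for the pericyte genes.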
